A study of Mus musculus with 4 samples.

Results

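Apolipoproteins are the protein coats of the particles that carry cholesterol and triglyceride in blood. The 10 genes described here were taken by name and mm10 position: Apoa1, Apoc3, Apoa4 and Apoa5 in a cluster on chromosome 9, Apoe, Apoc1, Apoc4 and Apoc2 in a cluster on chromosome 7, and the single genes Apoa2 on chromosome 1 and Apob on chromosome 12. They are 10 of 21887 protein-coding genes placed on the region lists, and all 10 matched the gene table by symbol. Occupancy of RNA polymerase II (Pol II), the enzyme that transcribes protein-coding genes, was mapped by chromatin immunoprecipitation and sequencing in 4 flash-frozen organs (liver, heart, kidney and lung) of C57BL/6 mice. The organs came from 2 animals and the antibody was 4H8, against the C-terminal domain of the polymerase. No treatment or mutated allele is labelled, and age and sex were not among the labels.

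Hepatocytes secrete apolipoprotein B on very-low-density lipoprotein and apolipoprotein A1 on high-density lipoprotein, and the small C apolipoproteins and apolipoprotein E move between particles and steer their lipolysis and uptake. The intestine, which is not among the organs measured, is the other main source of several of these proteins. Apolipoprotein E is also made by macrophages and other cells outside the liver. Pol II that moves along a gene leaves signal over the whole transcribed stretch and some way past its end, so a region called from such signal can be long and can take in neighbouring genes.

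There was 1 list of called regions per organ, so the spread between animals is unknown and organs are compared by description alone. The heart list was made from 9880184 tags and held 81887 regions, the kidney list from 16589890.5 tags with 88200 regions, the liver list from 20058183 tags with 61956 regions, and the lung list from 13296938 tags with 101051 regions. The labels do not say whether a list joins both animals. The immunoprecipitation efficiency stated with the lists was 55.1% for liver, 46.3% for heart, 44.1% for kidney and 32.1% for lung. Levels were not adjusted for it, so differences in tags per kb between organs include this difference between lists. Covered percent means the part of a gene, from one annotated end to the other with introns, that falls in called regions. Tags per kb of span are the deposited tags of the overlapping regions, scaled by the authors to a total of 10000000 tags per list and spread evenly along each region. Even spreading gives genes inside a single region the same tags per kb, and sequence with no called region counts as 0. Intervals in brackets are exact Poisson 95% intervals for the tags of a region and cover counting error only. The labelled organs were checked against defining genes: 8 of 8 hepatocyte genes were covered over at least 50% of their span in liver and 0 of 8 in each other organ. For cardiomyocytes 7 of 7 were covered in heart and for proximal tubule 6 of 6 in kidney, with 0 in each other organ. For lung epithelium 7 of 7 were covered in lung and 0 in heart and kidney, but Sftpc was also covered in liver, over 74.8% and with 23.7 tags per kb beside 22.9 in lung.

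The liver list covered all 10 apolipoprotein genes, 9 of them over 100% of the span and Apoc2 over 84.3%. Against a background of 21.9% of protein-coding genes covered over at least 50% in liver, the count was 10 of 10. It was 2 of 10 in heart (background 16.1%), 2 of 10 in kidney (21.1%) and 2 of 10 in lung (15.1%), shares close to the background of those lists. In each of these 3 organs the covered members were Apoe and Apoa2. The median covered percent of the 10 genes was 100% in liver, 8.72% in heart, 25.9% in kidney and 19.2% in lung, beside 2.76%, 2.26%, 5.07% and 3.88% over all protein-coding genes in the same order. At least 1 region overlapped 10 members in liver (56.8% of all genes), 6 in heart (57.0%), 9 in kidney (61.0%) and 7 in lung (60.3%). Members that share a region are not independent: the 10 covered genes in liver rested on 4 regions with the largest overlaps, 1 per locus. The heart and lung counts depended on which regions were kept. With the 50% of regions of highest score both became 0, while the liver count was 10 in that selection. Ranked by density instead, the region over most of Apoe exceeded 95.9% of heart and 49.7% of lung regions, and that of Apoa2 93.9% and 96.4%. In lung 1 member was covered with a minimum density shared by the 4 lists (Apoa2), and 1 with equal numbers of regions per list (Apoe). In whole organs, fewer cells of a type and less polymerase per cell cannot be told apart.

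**Figure D1:**
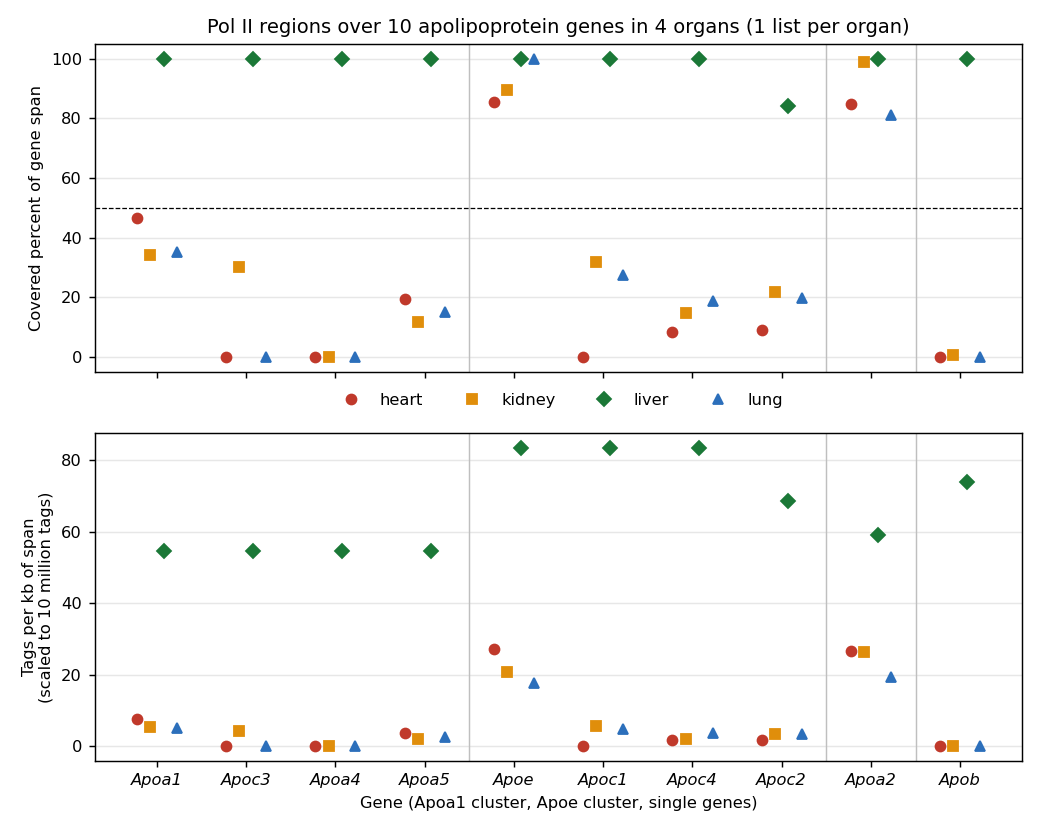
Covered percent of the gene span (top; dashed line at 50%) and tags per kb of span (bottom, scaled tags) for each apolipoprotein gene, with 1 marker per organ and vertical lines between loci. The liver markers lie at 100% for 9 genes and at 84.3% for Apoc2, and in the other organs only Apoe and Apoa2 lie above 50%.

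The density of tags over the members was also high within the liver list. It ran from 54.5 tags per kb over the 4 genes of the Apoa1 cluster to 83.5 tags per kb over Apoe, Apoc1 and Apoc4, with Apoa2 at 59.2, Apoc2 at 68.5 and Apob at 73.9. The median of the 10 was 63.8 tags per kb, beside 0.452 over all protein-coding genes. Ranked among all 21887 genes of the liver list, Apoe, Apoc1 and Apoc4 shared rank 8, Apob had rank 19, Apoc2 rank 37, Apoa2 rank 99, and the Apoa1 cluster genes shared rank 164. In heart the median of the 10 was 1.77 tags per kb (0.482 over all genes), in kidney 3.67 (0.907) and in lung 3.46 (0.685). Outside liver the highest members were Apoe in heart with 27.1 tags per kb, and Apoa2 in kidney and lung with 26.2 and 19.3 tags per kb.

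**Figure D2:**
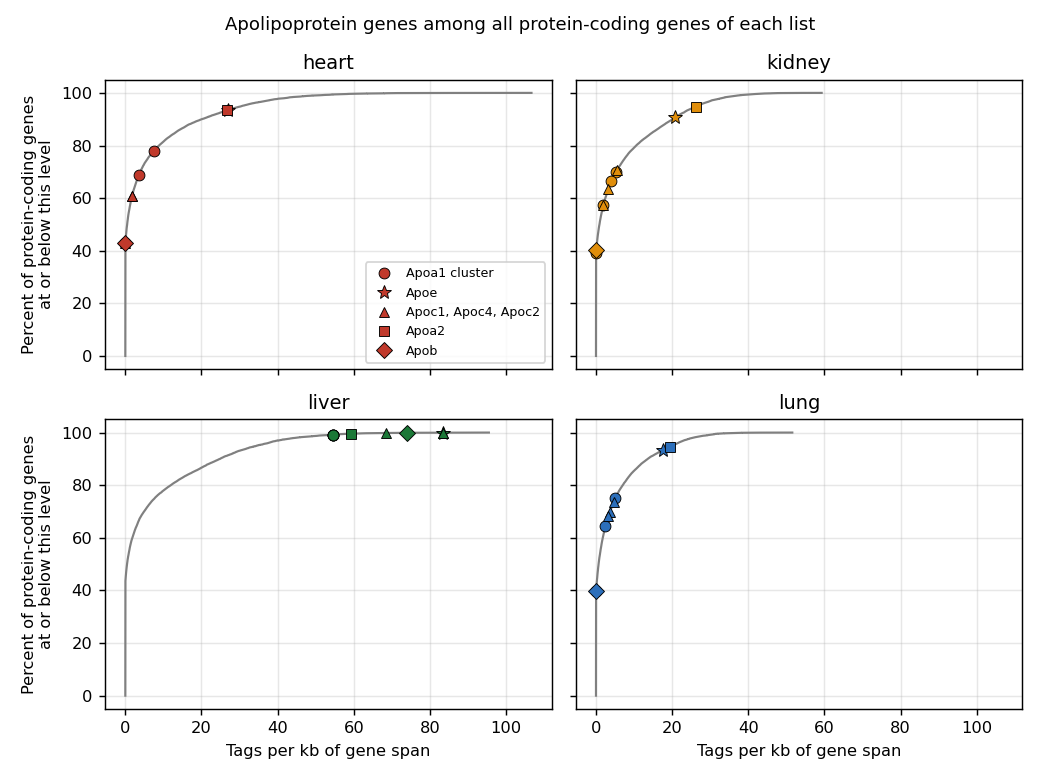
Cumulative distribution of tags per kb of gene span over all 21887 protein-coding genes (grey line, 1 panel per organ), with the apolipoprotein genes marked by locus. In liver every marker lies between 54.5 and 83.5 tags per kb at the top of the curve, whereas in heart, kidney and lung only Apoe and Apoa2 lie above 10 tags per kb.

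The Apoa1 cluster holds the genes of apolipoprotein A1, the main protein of high-density lipoprotein, apolipoprotein C3, an inhibitor of triglyceride clearance, apolipoprotein A4, a protein of lipid absorption and transport, and apolipoprotein A5, which promotes triglyceride clearance. It spans 43.3 kb of chromosome 9. Apoa1 lies at 46228630 to 46230469, Apoc3 at 46233050 to 46235636, Apoa4 at 46240844 to 46243458 and Apoa5 at 46268608 to 46271921. In liver a single region of 151 kb (46138316 to 46288921) held the 4 genes and all the sequence between them, including the 25.1 kb between Apoa4 and Apoa5. This region carried 8206 tags (54.5 per kb, interval 53.7 to 55.3), the 13th most of 61956 liver regions by tags and the 18th longest. It began 90.3 kb before Apoa1 and ended 17.0 kb after Apoa5. Besides the 4 apolipoprotein genes it held the whole of Zpr1, which encodes a zinc finger protein, 85.9 kb or 40.6% of the kinase gene Sik3, and 37.6% of Bud13, a splicing factor gene. Since 54.5 tags per kb is the mean of the whole region, the level of a single gene inside it was not resolved.

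In heart, kidney and lung the cluster was mostly outside called regions. The covered share of the 43.3 kb was 9.46% in heart in 6 regions, 12.3% in kidney in 5 regions and 2.65% in lung in 2 regions. Apoa1 was covered over 46.6% in heart, 34.1% in kidney and 35.1% in lung, each by 1 region, with 7.54, 5.22 and 5.11 tags per kb of span. Only the heart region, of 1.56 kb and 25.3 tags (interval 16.4 to 37.3), held the annotated start of Apoa1. In kidney the nearest region lay 1212 bp from that start and in lung 754 bp. Apoc3 was covered over 30.2% in kidney, by a region of 2.62 kb with 35.3 tags, and had no region in heart or lung. Apoa5 was covered over 19.5% in heart, 11.8% in kidney and 15.1% in lung, in heart and kidney by a region that reached from the end of Apoa5 into Zpr1 and in lung by a region that ended inside Apoa5. Apoa4 had no region in heart, kidney or lung, and from its start the nearest region was 7813 bp away in heart, 3366 bp in kidney and 10816 bp in lung. The sequence without a region was longest in lung, 41.0 kb from within Apoa1 to within Apoa5. The flanking gene Sik3 was covered over 96.5% in liver, 57.9% in heart, 80.5% in kidney and 32.6% in lung.

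**Figure D3:**
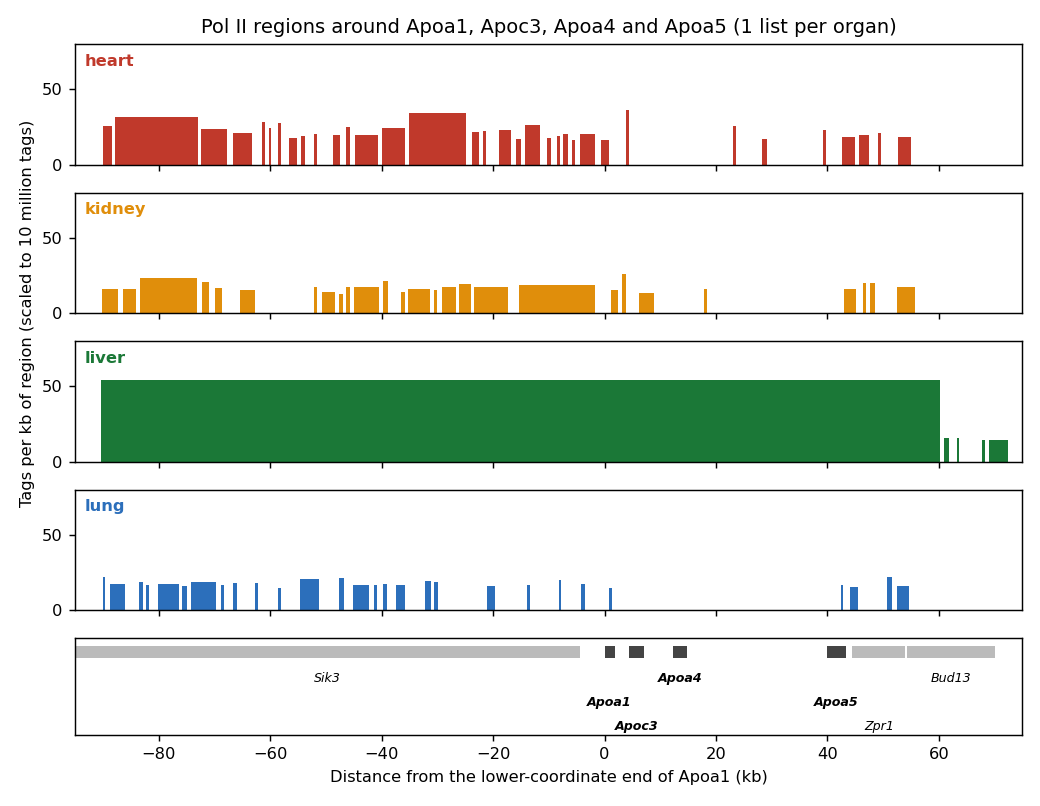
Called regions around the Apoa1 cluster, 1 panel per organ, drawn to scale along the chromosome (x axis, kb from the lower-coordinate end of Apoa1) with the tags per kb of each region as its height. Spans of members (dark) and of some neighbours are in the bottom panel. A single liver region of 54.5 tags per kb runs from Sik3 to Bud13, and the other lists hold separate short regions that are sparse between Apoc3 and Apoa5.

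The sequences before the starts of Apoa1, Apoa4 and Apoa5 are shown because all 3 starts lay in the same liver region, while outside liver only that of Apoa1 lay in a region, in heart. They are the 250 bases before each start on the plus strand, from RefSeq on GRCm38.p6, at chr9:46228380-46228629 for Apoa1, chr9:46240594-46240843 for Apoa4 and chr9:46268358-46268607 for Apoa5. Capitals mark matches, on both strands, to any of 4 letter strings: TATAAA (the TATA box), AGGTCA (the core string of nuclear receptor sites), and CAAAGTCCA and CAAAGGTCA (strings of the kind bound by HNF4). CAAAGGTCA ends in AGGTCA, so a match to the longer string is also a match to the shorter.
Apoa1: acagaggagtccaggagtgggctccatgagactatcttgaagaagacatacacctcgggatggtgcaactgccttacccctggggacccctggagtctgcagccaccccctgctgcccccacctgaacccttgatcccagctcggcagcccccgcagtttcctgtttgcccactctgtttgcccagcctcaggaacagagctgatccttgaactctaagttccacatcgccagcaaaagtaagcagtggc
Apoa4: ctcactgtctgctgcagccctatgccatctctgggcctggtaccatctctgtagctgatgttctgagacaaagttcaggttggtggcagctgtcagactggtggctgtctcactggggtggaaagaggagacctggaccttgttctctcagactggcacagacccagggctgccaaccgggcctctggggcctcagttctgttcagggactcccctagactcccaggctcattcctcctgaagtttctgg
Apoa5: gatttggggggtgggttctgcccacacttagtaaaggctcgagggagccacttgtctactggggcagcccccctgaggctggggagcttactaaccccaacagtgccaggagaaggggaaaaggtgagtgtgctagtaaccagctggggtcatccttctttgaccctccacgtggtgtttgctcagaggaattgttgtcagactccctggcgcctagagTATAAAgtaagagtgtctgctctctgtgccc
In Apoa5 TATAAA began 31 bases before the start at 46268608 and 56 bases before another annotated start at 46268633. The windows of Apoa1 and Apoa4 held none of the 4 strings. Of 21263 windows of this length before starts of protein-coding genes, 11.6% held TATAAA, 12.8% AGGTCA, 0.390% CAAAGTCCA and 0.395% CAAAGGTCA.

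Apob encodes the single large structural protein of low-density and very-low-density lipoproteins. It occupies 7977629 to 8016839 of chromosome 12, a span of 39.2 kb. In liver it lay whole inside a region of 55.9 kb (7968808 to 8024676) with 4131 tags (73.9 per kb, interval 72.4 to 75.5), which held no other gene of the table. The region began 8.82 kb before the span and ended 7.84 kb after it. Of all liver regions, 99.9% had a lower density. In kidney a single short region of 626 bp (7977230 to 7977856) overlapped Apob. It held the annotated start, covered 0.581% of the span and carried 9.04 scaled tags (interval 5.06 to 14.9), or 15 tags before scaling. Heart and lung had no region in the gene, and the nearest region to the annotated start was 120524 bp away in heart and 69530 bp in lung. The sequence before the start is shown because it was called in both liver and kidney, and ends where the annotated span begins (chr12:7977427-7977628, plus strand, capitals as above).
Apob: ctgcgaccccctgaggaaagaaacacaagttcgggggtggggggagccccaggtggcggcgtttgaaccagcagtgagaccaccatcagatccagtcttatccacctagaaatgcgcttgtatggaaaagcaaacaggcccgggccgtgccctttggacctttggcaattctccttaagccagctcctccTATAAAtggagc
TATAAA began 60 bases before the start at 7977677.

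The liver list also held regions before Apob where no protein-coding gene is annotated. A region of 40.6 kb (7898030 to 7938648) carried 1998 tags (49.2 per kb) and ended 39.0 kb before the gene. A region of 24.7 kb (7939444 to 7964128) carried 892 tags (36.2 per kb) and ended 13.5 kb before it. In the 100 kb before Apob the liver list had 9 regions that covered 74.8 kb, against 2 regions and 3.76 kb in kidney, 1 region and 1.68 kb in lung, and none in heart. The 2 kidney regions, of 31.6 and 46.4 tags, lay inside the limits of the 40.6 kb liver region. The nearest protein-coding gene before Apob, Klhl29, was 2602 kb away and the nearest after it, Ldah, 191 kb away. Only the pseudogene Gm18387 of the table touched the 40.6 kb region, and no gene touched the 24.7 kb region.

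The Apoe cluster on chromosome 7 holds the genes of apolipoprotein E, a ligand of lipoprotein receptors, apolipoprotein C1, apolipoprotein C4 and apolipoprotein C2, the cofactor that activates lipoprotein lipase. It spans 29.7 kb, with Apoc2 at 19671579 to 19677941, Apoc4 at 19678084 to 19681460, Apoc1 at 19689480 to 19692659 and Apoe at 19696244 to 19701310. In liver a region of 46.3 kb (19673060 to 19719336) held Apoc4, Apoc1, Apoe and the mitochondrial import gene Tomm40 whole, most of Apoc2 and 8.18% of Nectin2. It carried 3862 tags (83.5 per kb, interval 81.6 to 85.3). Its score exceeded 99.9% of liver regions, against 49.4% for the Apoa1 cluster region, 60.3% for Apob and 81.0% for Apoa2. A second liver region of 8.87 kb (19663196 to 19672063) ended 0.485 kb into the far end of Apoc2. The 996 bp between it and the 46.3 kb region lay within Apoc2. The second region had 58.6 tags per kb (interval 55.1 to 62.3). The gene table also lists Gm44805, a model that joins Apoc4 and Apoc2 and covers the same sequence, so tags there cannot be assigned to a single model.

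Outside liver, Apoe was covered more widely than the C apolipoprotein genes beside it. Its span was covered over 85.5% in heart, 89.7% in kidney and 100% in lung, with 27.1, 20.8 and 17.5 tags per kb of span, beside 100% and 83.5 in liver. In heart this level exceeded 93.6% of protein-coding genes, in lung 93.3%, in kidney 90.7% and in liver 99.95%. The heart and kidney regions over most of Apoe were alike in limits, 19697102 to 19704720 and 19697151 to 19704850, and reached over 24.1% and 25.04% of Tomm40. Their densities were 31.9 tags per kb (interval 28.0 to 36.2) and 24.0 (21.4 to 26.8). In lung a region of 6.57 kb (19694843 to 19701412) took in Apoe and 100 bases of Tomm40, with 17.5 tags per kb (14.9 to 20.5). Compared with other regions, the density was above that of 95.9% in heart, 93.9% in kidney and 49.7% in lung. The score of the heart region, 9, was the lowest of its list. Of kidney regions 38.2% scored lower, and of lung regions 24.4%. Counted per kb of span, the liver level of Apoe was 3.08 times that of heart, the next organ, where 85.5% was covered. That ratio was not adjusted for the differing efficiency of the lists. The liver region of 46.3 kb also held Apoc4, Apoc1 and Tomm40 whole, so its density is not that of Apoe alone. The intervals cover counting error only and do not order Apoe between organs. Heart and kidney each had a second, short region at the other end of Apoe, with 23.8 tags per kb (14.1 to 37.6) in heart and 14.9 (9.48 to 22.4) in kidney, whose intervals overlapped each other and that of lung. Apoe and Tomm40 are 2 bp apart in the table and tags carry no strand of transcription, so tags past that boundary cannot be assigned to either gene.

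The C apolipoprotein genes were covered over less than 50% in each organ other than liver. Apoc1 was at 0% in heart, 31.9% in kidney and 27.6% in lung, Apoc4 at 8.35%, 14.8% and 18.7%, and Apoc2 at 9.08%, 21.7% and 19.7%. Their highest level outside liver was 5.60 tags per kb, for Apoc1 in kidney, beside 83.5 in liver. The 10 regions over Apoc1, Apoc4 and Apoc2 in these 3 lists were 500 to 1013 bp long and carried 6.63 to 17.8 scaled tags. A heart region of 500 bp with 10.6 tags (interval 5.18 to 19.2) lay over the 142 bp between Apoc2 and Apoc4 and held the annotated start of Apoc2. In lung the start of Apoc4 lay at the last bases of a 631 bp region. No kidney region held a start of Apoc2 or Apoc4, the nearest being 511 and 621 bp away.

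**Figure D4:**
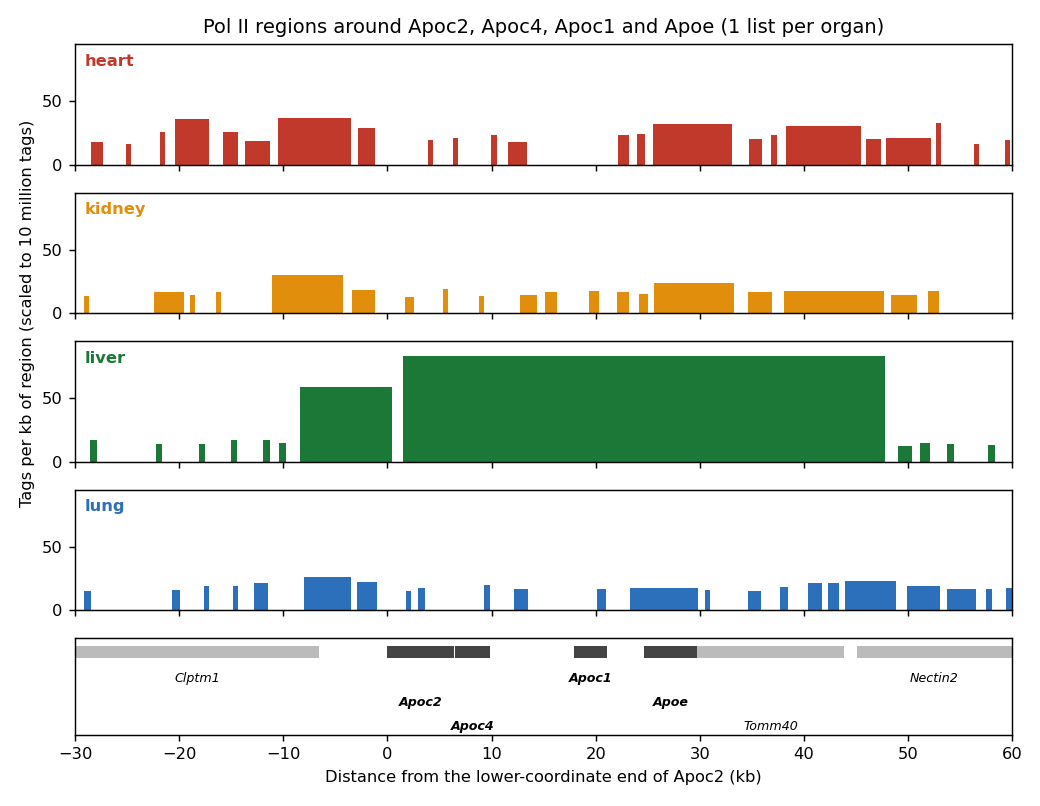
Called regions around the Apoe cluster, 1 panel per organ, with kb from the lower-coordinate end of Apoc2 on the x axis and the tags per kb of each region as its height; spans of members (dark) and of some neighbours are at the bottom. The 46.3 kb liver region at 83.5 tags per kb runs over 4 apolipoprotein genes and Tomm40, and in heart, kidney and lung the region over Apoe is the longest within the cluster.

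The promoter of Apoc4 is shown because its start lay in a region in liver and lung, and in heart 39 bp outside one that covered 70.7% of the window around it (250 bases before to 50 after the start). The 250 bases before the start are at chr7:19681461-19681710 on the minus strand, with capitals as above.
Apoc4: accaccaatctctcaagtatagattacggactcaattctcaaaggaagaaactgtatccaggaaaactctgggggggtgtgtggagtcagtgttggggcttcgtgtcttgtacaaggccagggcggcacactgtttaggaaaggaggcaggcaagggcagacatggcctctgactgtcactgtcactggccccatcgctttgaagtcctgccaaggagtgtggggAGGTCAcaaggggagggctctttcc
AGGTCA began 25 bases before this start. In Apoc2 AGGTCA began 115 bases before the start. Of the 3 listed starts of Apoe, which all lay in regions in all 4 lists, 1 had TATAAA in its window, on both strands.

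Apoa2 encodes the second most abundant protein of high-density lipoprotein and was, with Apoe, the member covered in every list. It lies at 171221564 to 171226379 of chromosome 1. Its span begins inside that of Tomm40l (171217802 to 171222514), and tags carry no strand of transcription. Tags where these genes overlap therefore cannot be assigned to either of them. Covered percent of Apoa2 was 100% in liver, 84.8% in heart, 99.1% in kidney and 81.2% in lung, and tags per kb of span were 59.2, 26.7, 26.2 and 19.3 in the same order. The liver level was 2.22 times that of heart, without adjustment for the differing efficiency of the lists. The regions differed in extent. In liver it was a stretch of 61.1 kb (171190894 to 171251984, 59.2 tags per kb, interval 57.8 to 60.6) that also held whole Nr1i3, the gene of the xenobiotic receptor CAR, Tomm40l and Fcer1g. In kidney a region of 5.15 kb (171221191 to 171226336) began 0.373 kb before Apoa2 and ended just inside it, with 26.4 tags per kb (23.1 to 30.1). That kidney region also overlapped 28.1% of Tomm40l. The lung region of 5.75 kb (171219729 to 171225474, 23.8 tags per kb, 20.5 to 27.6) covered 59.1% of Tomm40l and stopped inside Apoa2.

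In heart 2 regions reached Apoa2 from its sides. A region of 13.3 kb (29.9 tags per kb, 27.0 to 33.0) held Nr1i3 and Tomm40l whole and ended inside Apoa2, covering 59.2% of its span. Another of 28.1 kb (35.2 tags per kb, 33.0 to 37.5) began inside it and held Fcer1g whole. The 734 bp between them contained a start of Apoa2, at 171225054, so the whole of the 300-base window around that start was outside heart regions. In kidney, liver and lung that window was covered over 100%. The start at 171221564, which lies inside Tomm40l, was in a region in all 4 lists. TATAAA began 212 bases before the start that was left out in heart. Apoa2 also depended on the regions kept when these were chosen by score. Its heart regions had the lowest score of that list, 9.0, and its lung region the lowest of its list, 11. By density the same regions ranked high, above 93.9% and 97.8% of heart regions and 96.4% of lung regions.

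**Figure D5:**
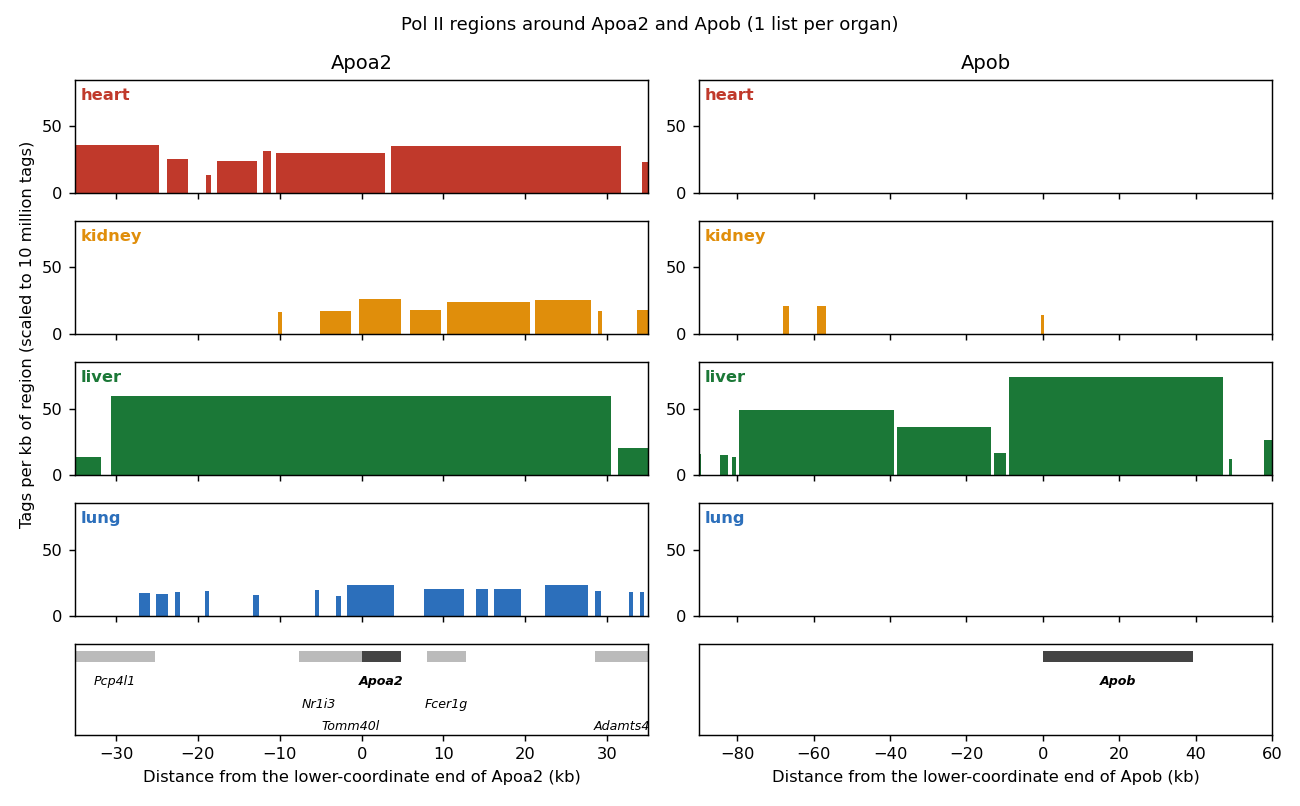
Called regions around Apoa2 (left) and Apob (right), 1 row per organ, with kb from the lower-coordinate end of the gene on the x axes and the tags per kb of each region as its height; spans of members (dark) and of some neighbours are at the bottom. Apoa2 lies among regions in all organs, with a gap inside the gene in heart, and Apob has a 55.9 kb region in liver, a 626 bp region at its start in kidney and none in heart or lung.

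Annotated starts of transcription were also counted. The promoter table held 12 starts for 8 of the 10 members and none for Apoc1 and Apoc3. All 12 starts lay inside liver regions, where 46.0% of 21263 starts of protein-coding genes did. In heart (background 40.2%), kidney (46.3%) and lung (40.2%) 6 of 12 starts each lay inside a region. Apoe and Apoa2 supplied 5 of the 12 starts, so the counts by gene were 8 of 8 members in liver, 4 in heart, 3 in kidney and 3 in lung. The 4 in heart were Apoa1, Apoa2, Apoc2 and Apoe, the 3 in kidney Apoa2, Apob and Apoe, and the 3 in lung Apoa2, Apoc4 and Apoe.

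Macrophage genes were set beside Apoe, which those cells are known to express. Of 10 macrophage genes, 1 was covered over at least 50% in heart (all genes 16.1%), kidney (21.1%) and liver (21.9%) each, and 2 in lung (15.1%). These counts were near or below those shares. The summed level was 30.0 tags per kb in liver, 61.1 in heart, 37.0 in kidney and 47.3 in lung. Cd68 made up most of it, 8 of 10 genes were at 0 in liver, 5 in heart, 6 in kidney and 6 in lung, and Adgre1, Clec4f and Marco were at 0 in all 4 lists. Lyz2 was covered in lung only, over 75.2%. Below the 50% threshold, Csf1r was at 49.9% in kidney and 24.4% in heart. In heart C1qa was at 41.5% and C1qb at 13.6%. Hepatocyte genes summed to 498 tags per kb in liver, 11.5 in heart, 2.69 in kidney and 2.38 in lung. Of the 8 genes 0, 6, 6 and 7 were at 0 in the same order. Fgb, Ahsg, Cps1 and Tat were among them in each organ other than liver. Ttr made up most of the heart sum, with 10.7 tags per kb over 42.6% of its span, and Trf was at 3.70% there. In kidney Ttr was covered over 11.6% and Alb over 4.57%, and in lung Trf over 12.4%. The part of cell types other than hepatocytes in the occupancy of Apoe and Apoa2 was not tested.

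Genes that act with apolipoproteins were followed through lists, whose counts stand beside the shares of all genes given above (21.9% in liver, 16.1% in heart, 21.1% in kidney and 15.1% in lung). All 15 genes of lipoprotein assembly and secretion were covered in liver, against 5 in heart, 6 in kidney and 4 in lung. The median of this list was 23.6 tags per kb in liver, and the 4 highest were P4hb (49.1), a subunit of the triglyceride transfer complex, Dgat2 (46.5), which makes triglyceride, Sar1b (42.4) and Surf4 (36.3), both of vesicle transport. Mttp, the gene of the other subunit of that complex, was covered over 83.6% in liver with 21.7 tags per kb, and over 17.1% in heart, 5.605% in kidney and 4.78% in lung. P4hb and Surf4 were also covered in heart, kidney and lung, Dgat2 in heart and kidney, and Sar1b in kidney. Apobec1, the enzyme that edits Apob mRNA, was covered over 84.3% in liver, and its cofactor gene A1cf over 77.0%.

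Lipolysis and transfer genes were covered for 8 of 12 in liver (all genes 21.9%), 5 in heart (16.1%), 4 in kidney (21.1%) and 3 in lung (15.1%). Among the highest in liver were Angptl4 (48.8 tags per kb), Lcat (39.5), which esterifies cholesterol, and Angptl8 (38.1). Angptl4 was also covered in heart, kidney and lung, and Lcat and Angptl8 also in heart. Angptl4 and Angptl8 act on lipoprotein lipase. Lpl, the lipase itself, was covered over 100% in heart with 73.0 tags per kb and over 1.33% in liver with 0.172. Gpihbp1, which holds the lipase on capillary walls, was covered over 100% in heart and lung, with 52.2 and 21.6 tags per kb.

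Receptors and clearance genes were covered for 8 of 18 in liver (all genes 21.9%), 4 in heart (16.1%), 4 in kidney (21.1%) and 5 in lung (15.1%). The heart and kidney counts were near those shares. Asgr1 (60.1 tags per kb), Lsr (53.2) and Lrp1 (40.2) were among the highest in liver, and Lsr and Lrp1 encode lipoprotein receptors. Lsr was also covered in heart, kidney and lung. Lrp2, a kidney receptor that takes up filtered apolipoproteins, was covered over 100% in kidney and 4.13% in liver. Vldlr was covered over 94.1% in heart and had no region in liver. Sterol efflux genes were covered for 8 of 11 in liver and 2 in each other organ, led in liver by Npc1 (44.9 tags per kb), Abcb4 (42.9), Abcg8 (34.4) and Abca1 (28.6), the transporter that loads lipid onto apolipoprotein A1. Transcription factor genes with known roles at apolipoprotein promoters were covered for 20 of 22 in liver, 13 in kidney, 9 in lung and 8 in heart. Hnf4a (59.7 tags per kb), Ppara (59.5), Cebpa (55.4) and Usf2 (53.2) were highest in liver. Ppara was also covered in heart and kidney, and Cebpa in kidney and lung. Hnf4a was covered over 90.0% in liver and 70.2% in kidney, against 1.76% in heart and 0% in lung, and Nr1h4, the bile acid receptor gene, over 100% and 71.3%, against 0% in both others.

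For the single genes Apoa4, Apob, Apoa2 and Apoe, the most alike genes on other chromosomes were those with the smallest Euclidean distance of log2(tags per kb + 1) over the 4 organs. Apoa4, without a region outside liver, does not stand for Apoa1 and Apoa5, which had regions in all 4 lists. Nearest to Apoa4 were Uox and Dnase2b (both at 54.7 tags per kb in liver, distance 0.0054) and the hepcidin gene Hamp (53.2, distance 0.033), each with no region in heart, kidney or lung. Lsr and Usf2 had the same liver level as Hamp, and both had regions in heart, kidney and lung. Nearest to Apob were Cyp2d11 and Cyp2d10 (both 72.8 tags per kb in liver, distance 0.12), which are close paralogs, and Cps1 of the urea cycle (75.9, distance 0.12). Nearest to Apoa2 were Bola2 (distance 0.29), Tgoln1 (0.31) and Retsat (0.34). Nearest to Apoe were Tomm40l (0.61) and Fcer1g (0.65), both from the liver region of Apoa2, and no gene came as close to Apoe as to the other 3. Likeness over 4 lists is a description of levels, and genes that share a region have equal values.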

How the data were processed

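Pol II chromatin immunoprecipitation libraries of heart, kidney, liver and lung were sequenced. The submitters' processing notes name Bowtie2 2.2.8, HOMER 4.8 and the build mm10. HOMER findPeaks ran in histone style, with 500 bp windows joined into longer regions, a Poisson p threshold of 0.001 and no control named, per the file headers. The deposited signal of a region is its tag count, scaled by the authors to a total of 10000000. The deposited score and clonal fold ratio of a region are the caller's own, per the file headers, and the ratio was not used. The handling of reads with several matches was not stated there.

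Gene spans came from a RefSeq table and promoter windows (250 bases before to 50 after a start) from a RefSeq sequence table, both of GRCm38.p6, the assembly behind mm10. Exon positions were not used here. A gene was called covered at 50% of its span or more. Tags before scaling were the scaled tags multiplied by the list's total over 10000000. Of 157 distinct listed symbols, 156 matched. Genes named besides the members are those sharing a region with a member, the up to 4 of each list with the highest liver level, those of highest likeness, and others chosen after their values were seen. Some genes that this rule names are not reported here. Printed sequence is limited to bases outside annotated gene spans. The members and lists were chosen with earlier results of these data known. No test between organs was possible with 1 list each. Python 3.11.15, pandas 2.3.3 and scipy 1.17.1 were used. The overlap code was tested on simulated regions, where 100% of 2000 covered lengths equalled per-base counts. Alternatives kept the 50% of regions of highest score, regions of at least 10 tags, equal numbers of regions, regions above a common density, other spans and other coverage thresholds.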

Additional observations from a re-analysis of the deposited data

How the results depend on the processing

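The 10 covered members and the median of 100% in liver were the same under the 25% and 75% thresholds and in each selection of regions, and became 4 when members sharing a region were counted once. Elsewhere the values moved by more than 1.5 times as follows, and the cause was not tested. With the 50% of regions of highest score the covered count was 0 in heart and in lung, and the median covered percent and tags per kb were 0 in both. Without regions under 10 tags the median covered percent was 4.78% in heart and 5.93% in lung, with 1.01 and 1.04 tags per kb. With 61956 regions per list by score it was 0.605% in heart and 0% in lung, and 1 lung member was covered. With a common minimum of 18.2 tags per kb, the highest of the 4 stated thresholds and chosen after seeing the data, the median covered percent and tags per kb were 0 in heart, kidney and lung, and 1 lung member (Apoa2) was covered. At the 25% threshold 5 members were covered in kidney and 4 in lung. With 1 kb added on both sides the heart median was 16.7%. In the promoter windows of 8 members the median was 85.3% in heart, 0% in kidney and 0% in lung. Taking the region of largest overlap gave medians of 17.2 tags per kb in heart, 14.9 in kidney and 16.65 in lung. Requiring 50% of a span in 1 region left 2 regions each in heart, kidney and lung, where 8, 11 and 8 overlapped a member. Of the values of single genes, 111 moved by more than 1.5 times and 281 did not, over all alternatives. The 281 include all single-gene values in liver and those that stayed at 0, such as Apoa4 in heart. No paired analysis was possible because each organ has 1 list. The lists differ in depth, and the stated calling threshold, in scaled tags, was 9.11 for heart, 8.27 for lung, 7.23 for kidney and 6.98 for liver, so a short region could be called at a lower level in liver than in heart.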

Other observations

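Apolipoproteins outside the 10 genes were counted in the same way. Of 20 further genes of apolipoproteins and lipoprotein-associated proteins, 14 were covered over at least 50% in liver (21.9% of all genes), 5 in heart (16.1%), 2 in kidney (21.1%) and 2 in lung (15.1%). The kidney and lung counts were below those shares. Apoh (38.9 tags per kb), Pon1 (38.1), Apof (36.8) and Apon (36.8) were the highest in liver. Apom and Apof were covered over 100% in all 4 lists, and Clu over 100% in liver and 66.3% in heart. The acute phase genes Saa1, Saa3 and Saa4 were covered over 72.2%, 79.3% and 100% in liver, whereas Saa2, a close paralog of Saa1, had no region in any list. Apod had a region in heart only, over 18.7%, and Apol10b was covered over 72.1% in heart and 3.48% in liver. Apoo and Apool, which encode mitochondrial inner membrane proteins, were covered over at most 3.48% in each list.

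Marker genes of other cell types were also counted against the same shares of all genes. Of 6 enterocyte genes, Fabp2 was covered in liver over 80.7% and Vil1 in kidney over 50.7%, and Alpi, Lct and Cdx1 had no region in any list. Of 5 adipocyte genes, Cidec (95.5%), Fabp4 (79.1%) and Adipoq (70.7%) were covered in liver, and Fabp4 also in heart (100%) and kidney (71.9%), while Plin1 had no region in any list. The liver list also held at least 1 region in 5 of 7 lung epithelial genes, where 56.8% of all genes had one. Covered over at least 50% in liver was 1 of the 7 (all genes 21.9%). Sftpc, which encodes a surfactant protein, was covered over 74.8% in liver and 100% in lung, with 23.7 and 22.9 tags per kb. Liver coverage was 40.2% for Sftpb, 29.3% for Sftpd, 24.7% for Sftpa1 and 11.6% for Scgb1a1.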
